A study of Homo sapiens with 7 samples.

Results

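RNA levels of 9 genes of the Notch pathway were followed in untreated and BV6-treated RH30 cells. They are the receptors NOTCH1, NOTCH2 and NOTCH3, the ligands JAG1, JAG2 and DLL1, and the effectors HES1, HEY1 and HEYL. They were taken by symbol from the table of read counts, in which all 9 are listed among 57189 genes, and all 9 passed the filter on low counts that left 23124 genes for testing. The established cell line RH30 comes from alveolar rhabdomyosarcoma, a tumor with features of skeletal muscle. The genotype label is wt, while the methods state that the RH30 cells of the study carried a GFP and luciferase reporter. BV6 is a Smac mimetic, a small molecule that binds and depletes inhibitor of apoptosis proteins. Of the 7 samples, 4 were untreated and 3 had received BV6 (5 µM, 24 h), all in complete growth medium. The sample titles carry a BC code but do not say what it stands for. It was read here as an experiment label, and the samples were numbered in the order of the codes. By this reading, BV6 samples 2, 3 and 4 were matched to the untreated samples with the same number. The code shared by the samples numbered 4 is a double one. No BV6 sample matches untreated sample 1. A single cell line was used, and the labels do not say whether experiments were separate cultures, so p-values measure the spread between these samples only.

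Notch receptors are cut at the cell surface after they bind a Jagged or Delta-like ligand on a neighboring cell. First an ADAM protease and then γ-secretase cleave the receptor, and the freed intracellular domain joins the DNA-binding protein RBPJ and a Mastermind coactivator to switch on genes of the HES and HEY families. HES and HEY proteins are repressors of transcription, and in muscle progenitors Notch activity holds back differentiation into muscle fibers.

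The HES1 and HEYL promoters are shown because, of the 7 members whose promoter was found in the RefSeq table (all but DLL1 and HEY1), they alone held the letters TGGGAA, the core recognized by RBPJ, on either strand. Each covers 300 bases around the start of the gene in GRCh38.p14, and positions count from that start, with -1 for the base before it. Capitals mark TGGGAA, or TTCCCA where the match lay on the other strand.
HES1 promoter, chr3:194135898-194136197 (+): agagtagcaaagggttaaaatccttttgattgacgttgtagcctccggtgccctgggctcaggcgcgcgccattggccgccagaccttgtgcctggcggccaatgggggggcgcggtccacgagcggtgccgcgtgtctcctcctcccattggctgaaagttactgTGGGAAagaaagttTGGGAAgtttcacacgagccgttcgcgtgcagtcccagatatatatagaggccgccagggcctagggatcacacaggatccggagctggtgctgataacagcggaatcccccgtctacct
HEYL promoter, chr1:39639594-39639893 (-): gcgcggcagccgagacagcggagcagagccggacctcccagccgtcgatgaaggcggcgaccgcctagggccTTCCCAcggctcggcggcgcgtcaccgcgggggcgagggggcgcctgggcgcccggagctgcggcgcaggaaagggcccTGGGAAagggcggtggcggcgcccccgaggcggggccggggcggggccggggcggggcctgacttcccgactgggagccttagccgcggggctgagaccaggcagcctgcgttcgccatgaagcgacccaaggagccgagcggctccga
In HES1 both matches lay on the gene's own strand, at positions -84 to -79 and -70 to -65. In HEYL a match on the other strand lay at -178 to -173 and a match on the gene's strand at -99 to -94. At least 1 match was present in 24.0% and at least 2 in 3.8% of 35116 promoters of this length. CACNAG, the N-box bound by HES repressors, was found 4 times in the HES1 promoter and also in those of NOTCH1, NOTCH2 and NOTCH3, against 38.0% of all promoters with at least 1. A κB motif, the site type of NF-κB, was found in the promoters of NOTCH2 and HES1 and in 5.9% of all promoters. These matches describe letters in a fixed window, and binding was not measured.

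Total counts ranged from 54070030 to 77220882 per sample, so that 3 counts, the smallest number taken as detected, equal 0.0389 to 0.0557 CPM (the count scaled to the TMM-normalized library size). Each member had at least 86 counts in each sample. All 10 markers of muscle and alveolar rhabdomyosarcoma, among them MYOD1 and DES, exceeded 1 CPM in all samples (summed level 2190 to 3216 CPM in untreated and 1473 to 2487 CPM in BV6 samples). Of 9 leukocyte and NK cell markers 2 did so, NKG7 (5.29 to 11.1 CPM) and NCAM1, the latter a gene that muscle cells also make. Their summed list measured 354 to 495 against 274 to 401 CPM, and the pan-leukocyte marker PTPRC did not exceed 0.801 CPM. The source of the NKG7 reads was not tested. Of 6 endothelial markers, a cell type with its own Notch signaling, 2 did so (PECAM1 and TIE1, summed list 59.5 to 78.4 against 34.4 to 63.7 CPM), while CDH5 and KDR did not exceed 0.26 CPM. Of 5 epithelial markers none did (summed list 0.364 to 0.631 against 0.576 to 0.701 CPM). The summed levels of the muscle, leukocyte and endothelial lists reached lower values with BV6, and their part in the members' values was not tested. In the genes with at least 60% GC, the median deviation from the mean of all samples was 0.487 (log2) in untreated sample 1 and -0.702 in BV6 sample 3, against -0.0636 to 0.174 in the 5 other samples. NOTCH1 (63.3% GC), NOTCH3 (63.1%) and JAG2 (64.1%) are of this kind and DLL1 (59.5%) is close to it, while HEYL has 55.9%, HES1 49.97%, JAG1 49.6%, NOTCH2 49.4% and HEY1 45.05%. Values without these 2 samples and values corrected for the GC trend of each library are therefore given beside those of the members.

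In untreated cells, NOTCH2 and HEYL had the highest levels of the 9 members. Compared per kilobase of exon, NOTCH2 reached 39.4 ± 2.36 CPM per kb in untreated cells (SD, n = 4) and HEYL 20.9 ± 2.29, with no overlap between the samples of the 2 genes or with those of any other member. NOTCH1 (7.10 ± 3.20 CPM per kb), JAG2 (6.93 ± 3.72), NOTCH3 (6.17 ± 2.61), DLL1 (6.08 ± 1.68) and HES1 (5.33 ± 3.45) followed, and neighbors in this order did not differ beyond their spread. JAG1 (2.20 ± 0.407 CPM per kb) and HEY1 (2.19 ± 0.252) were lowest on average, although untreated sample 4 held less HES1 (1.41 CPM per kb) than any sample held JAG1 or HEY1 in that group. With the longest transcript in place of all exons as the length, HES1 moved from rank 7 to rank 5. In BV6-treated cells NOTCH2 (50.6 ± 3.68 CPM per kb, n = 3) and HEYL (15.2 ± 1.27) were again above the other members, which averaged between 1.83 (HEY1) and 4.09 CPM per kb (NOTCH1).

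**Figure D1:**
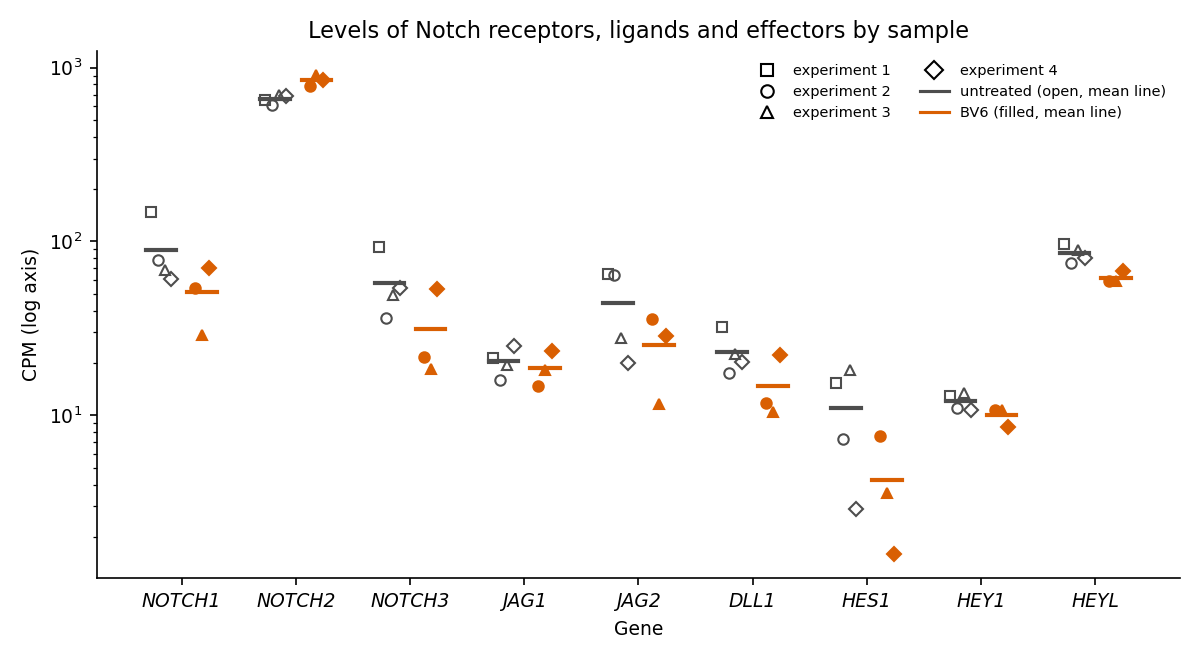
Level of each member in each sample, as CPM on a log axis, with open symbols for untreated and filled symbols for BV6-treated cells, the symbol shape giving the experiment and the line the group mean. NOTCH2 lies above and HEYL below its untreated samples in all 3 BV6 samples, while the groups of the other 7 genes overlap.

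With BV6, none of the 9 members passed edgeR's quasi-likelihood test at an adjusted p below 0.05, where 0.45% of all tested genes did. At an unadjusted p below 0.05 there were 2 members, NOTCH2 with a higher and HEYL with a lower mean, against a background of 8.39%. With the experiment as a block there were 5 (NOTCH2 higher, and NOTCH3, DLL1, HES1 and HEYL lower), against 11.4%, and after GC correction 6 (NOTCH2 higher, and NOTCH1, NOTCH3, DLL1, HEY1 and HEYL lower), against 10.4%. NOTCH2 and HEYL were the members whose groups did not overlap, against 8.83% of all genes. On average 8 members were lower and 1 was higher in BV6-treated cells, where 12104 of all 23124 tested genes were lower. The median log2 fold change was -0.65 over the 9 members and -0.014 over all tested genes. The median of the members, the value of DLL1 in each of these fits, was -0.53 after GC correction. It was -0.25 without the 2 samples whose GC-rich genes deviated most. The signs of the 9 members stayed the same in both fits, but much of the size of the median rested on these samples. They were the highest untreated and the lowest BV6 sample of DLL1, so leaving them out had to make its value smaller in size. At an adjusted p below 0.05 no member passed with the block (background 0.943%) or after GC correction (0.961%). The Wald test of DESeq2 passed HEYL (adjusted p = 0.0425, background 1.93%), but not with the block added (HEYL adjusted p = 0.0676, background 2.38%), and limma-voom passed none. When GC correction and the block were joined, NOTCH2 (adjusted p = 0.0122), NOTCH3 (0.0285) and HEYL (0.0109) passed, with a background of 5.14%. That GC fit covers 18101 genes, 78.3% of those tested, so its counts over the whole table are limited to genes with a known GC content.

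**Figure D2:**
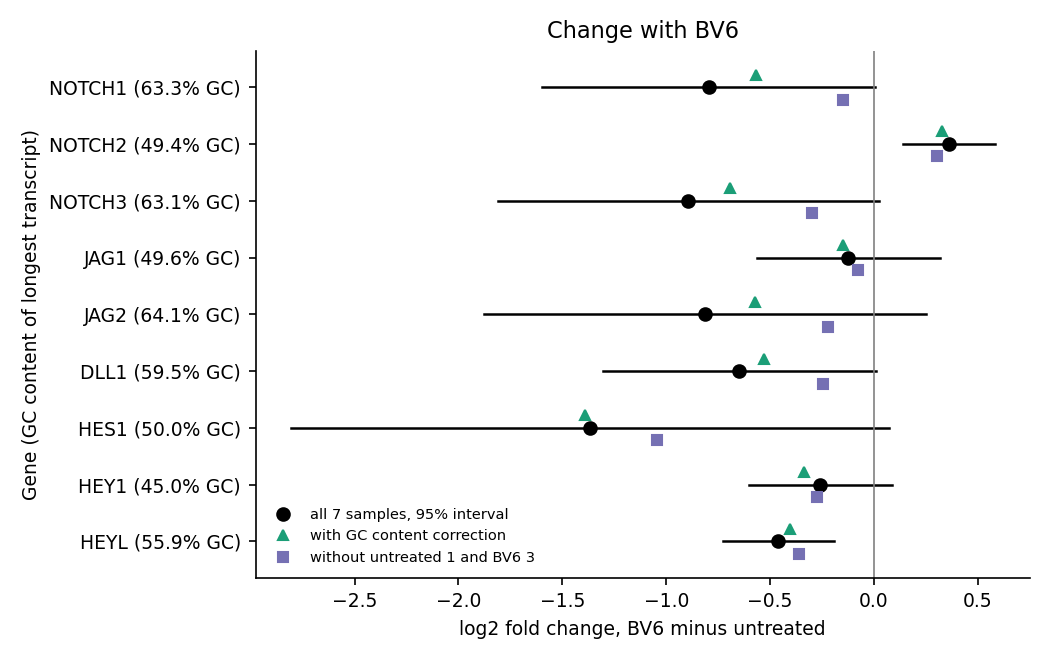
Log2 fold change, BV6 minus untreated, of each member: circles show all 7 samples with the 95% interval of edgeR's test, triangles the value with GC correction and squares the value without untreated sample 1 and BV6 sample 3. The intervals of NOTCH2 and HEYL leave out 0, and the squares lie closer to 0 than the circles for all members but HEY1.

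Among the receptors, NOTCH2, a widely expressed receptor, was the member with a higher level in BV6-treated cells. It measured 654, 607, 693 and 688 CPM in untreated samples 1 to 4 and 787, 910 and 846 CPM in BV6 samples 2 to 4. All 3 BV6 samples lay above all 4 untreated samples, and within the experiments the differences were 0.37, 0.39 and 0.30 on the log2 scale. In bulk samples, a different number of cells with the transcript and a different amount per cell cannot be told apart, here and for the other members. The means were 660 ± 39.5 CPM (SD, n = 4) and 848 ± 61.7 CPM (n = 3), with a log2 fold change of 0.36 (SE 0.0979, 95% interval 0.14 to 0.58, 1.28-fold, adjusted p = 0.24). After GC correction the value was 0.33, and without untreated sample 1 and BV6 sample 3 it was 0.30. NOTCH2 lies on chr1:119911553-120100779 (minus strand) and shares sequence with the human NOTCH2NL copies, so reads may be split between them. NOTCH2NLA, the copy listed in the table, measured 46.9, 37.6, 50.7 and 51.1 CPM in untreated and 42.1, 50.3 and 58.1 CPM in BV6 samples (log2 fold change 0.11, adjusted p = 0.868), and the sum of both genes gave 0.35 (adjusted p = 0.285).

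NOTCH1 (chr9:136494433-136546048) measured 148, 78.03, 68.2 and 61.2 CPM in untreated and 53.9, 29.1 and 70.6 CPM in BV6 samples. Untreated sample 1 was highest and BV6 sample 3 lowest, and the groups overlapped through BV6 sample 4. The log2 fold change of -0.80 (SE 0.357, 95% interval -1.60 to 0.0033, adjusted p = 0.596) became -0.57 after GC correction and -0.15 without the 2 samples that stand apart. Leaving out untreated sample 1 alone gave -0.43 and BV6 sample 3 alone -0.51. Within experiments 2, 3 and 4 the differences were -0.53, -1.23 and 0.21.

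NOTCH3 (chr19:15159038-15200995), a receptor described in rhabdomyosarcoma and in smooth muscle, had the same extremes. It measured 93.2, 36.2, 49.1 and 53.7 CPM in untreated and 21.8, 18.4 and 53.6 CPM in BV6 samples. BV6 samples 2 and 3 lay below all untreated samples, whereas BV6 sample 4 differed from its untreated partner by -0.0021 on the log2 scale. The log2 fold change was -0.89 (SE 0.409, 95% interval -1.81 to 0.024, adjusted p = 0.607), -0.69 after GC correction and -0.30 without the 2 samples that stand apart. Leaving out 1 sample moved it both ways, to -0.57 without untreated sample 1 and to -1.54 without BV6 sample 4 (adjusted p = 0.179). Among the receptors, NOTCH2 made up 64.1 to 79.4% of the summed CPM per kb of the 4 receptor genes (NOTCH4 included) in untreated samples and 81.6 to 92.6% in BV6 samples. The ends of these ranges, 64.1% and 92.6%, belong to untreated sample 1 and BV6 sample 3, and without them the ranges were 78.1 to 79.4% and 81.6 to 87.5%. Over all 7 samples the mean share of NOTCH1 was 13.2 and 7.03% and that of NOTCH3 11.4 and 5.62%.

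Among the ligands, the untreated and BV6 samples of all 3 overlapped, and none passed in any fit after adjustment over all genes. DLL1 was, however, among the lower members in the unadjusted counts given above, with the block and after GC correction. JAG1 (chr20:10637684-10673999), the Jagged ligand whose loss underlies Alagille syndrome, measured 21.4, 15.9, 19.5 and 24.9 CPM in untreated and 14.8, 18.1 and 23.4 CPM in BV6 samples. The BV6 samples had the same order as their untreated partners, with differences within experiments of -0.11, -0.11 and -0.09 on the log2 scale. The fold change was -0.12 (SE 0.197, 95% interval -0.56 to 0.32, adjusted p = 0.884), and without BV6 sample 2 it was 0.03, the only member value to change sign when a sample was left out. It was -0.15 after GC correction and -0.08 without the 2 samples that stand apart. JAG2 (chr14:105140982-105168824) measured 65.0, 64.4, 27.8 and 20.0 CPM in untreated and 35.7, 11.6 and 28.4 CPM in BV6 samples. The untreated samples alone spanned 3.24-fold, and all BV6 samples lay below untreated samples 1 and 2. Its log2 fold change of -0.81 (SE 0.475, 95% interval -1.88 to 0.25, adjusted p = 0.707) became -0.58 after GC correction and -0.22 without the 2 samples that stand apart, and -0.46 without BV6 sample 3 alone.

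DLL1 (chr6:170282206-170306565), a Delta-like ligand that signals to muscle progenitors, measured 32.3, 17.6, 22.6 and 20.3 CPM in untreated and 11.7, 10.4 and 22.3 CPM in BV6 samples. Again BV6 samples 2 and 3 were below all untreated samples and BV6 sample 4 was among them. The log2 fold change was -0.65 (SE 0.293, 95% interval -1.31 to 0.0077, adjusted p = 0.6), -0.53 after GC correction and -0.25 without the 2 samples that stand apart, and it was -1.07 without BV6 sample 4 (adjusted p = 0.187). Exons of DLL1 share 370 bases with FAM120B on the opposite strand, those of JAG1 share 306 bases with a lncRNA on the opposite strand and those of JAG2 469 bases with a lncRNA on the same strand, and the use of strand in counting is not given in the sources used here. Within the summed CPM per kb of JAG1, JAG2, DLL1, DLL3 and DLL4, the share of JAG2 ranged from 26.5 to 60% in untreated and from 26.5 to 52.3% in BV6 samples, and that of JAG1 from 10.2 to 22.7% and from 14.9 to 28.5%.

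Among the effectors, HEYL (chr1:39623435-39639643, minus strand), a HEY repressor found in muscle satellite cells and vessel walls, was lower in each BV6 sample than in each untreated sample. It measured 96.7, 75.4, 88.8 and 80.7 CPM in untreated and 59.0, 59.2 and 68.0 CPM in BV6 samples. The means were 85.4 ± 9.33 CPM (n = 4) and 62.1 ± 5.17 CPM (n = 3), with a log2 fold change of -0.46 (SE 0.119, 95% interval -0.73 to -0.19, 1.38-fold lower, adjusted p = 0.216). Differences within experiments were -0.36, -0.59 and -0.25. The value was -0.40 after GC correction and -0.36 without the 2 samples that stand apart. The interval leaves out 0 for this single gene, whereas the p adjusted over all genes did not pass.

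HES1 (chr3:194136148-194138732, plus strand), the classical target of RBPJ and a gene whose RNA is short-lived and oscillates, spread most. It measured 15.4, 7.32, 18.3 and 2.89 CPM in untreated and 7.59, 3.57 and 1.60 CPM in BV6 samples. The untreated samples spanned 6.32-fold, and untreated sample 4 was lower than BV6 samples 2 and 3. Its log2 fold change of -1.37 was the largest of the members, but with an SE of 0.642 its 95% interval ran from -2.81 to 0.073 (adjusted p = 0.618). Within the experiments the differences were 0.05, -2.35 and -0.84. It was -1.39 after GC correction and -1.05 without the 2 samples that stand apart, and -2.07 without BV6 sample 2 (adjusted p = 0.533). HEY1 (chr8:79762371-79767857) was, in contrast, steady, with 12.97, 11.0, 13.4 and 10.7 CPM in untreated and 10.8, 10.8 and 8.60 CPM in BV6 samples. Its log2 fold change was -0.26 (SE 0.153, 95% interval -0.60 to 0.086, adjusted p = 0.71). It was -0.34 after GC correction, -0.27 without the 2 samples that stand apart and -0.16 without BV6 sample 4. Shares were taken within the summed CPM per kb of HES1, HEY1, HEY2 and HEYL. The HES genes other than HES1 were left out, among them HES4 (2.54 CPM per kb in untreated and 1.85 in BV6 samples). Also left out was HES6, whose level was higher than that of HEYL (41.1 CPM per kb in untreated and 24.9 in BV6 samples). The shares therefore hold only within these genes. HEYL made up 73.7 ± 8.24% of this sum in untreated and 78.3 ± 7.60% in BV6 samples, and HES1 17.3 ± 9.02% and 10.4 ± 7.07%.

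Paired by experiment, 4 members were lower in all 3 BV6 samples (NOTCH3, JAG1, HEY1 and HEYL), as were 17.8% of all tested genes, and 1 was higher in all 3 (NOTCH2), as were 15.5%. The 4 remaining members (NOTCH1, JAG2, DLL1 and HES1) had mixed signs. Experiment 3, which holds the BV6 sample that stands apart in its GC-rich genes, gave the lowest difference of the 3 for 8 of these genes, the exception being NOTCH2, although for JAG1 and HEY1 it was close to that of another experiment. Experiment 4 gave positive or near-zero differences for NOTCH1, NOTCH3, JAG2 and DLL1.

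**Figure D3:**
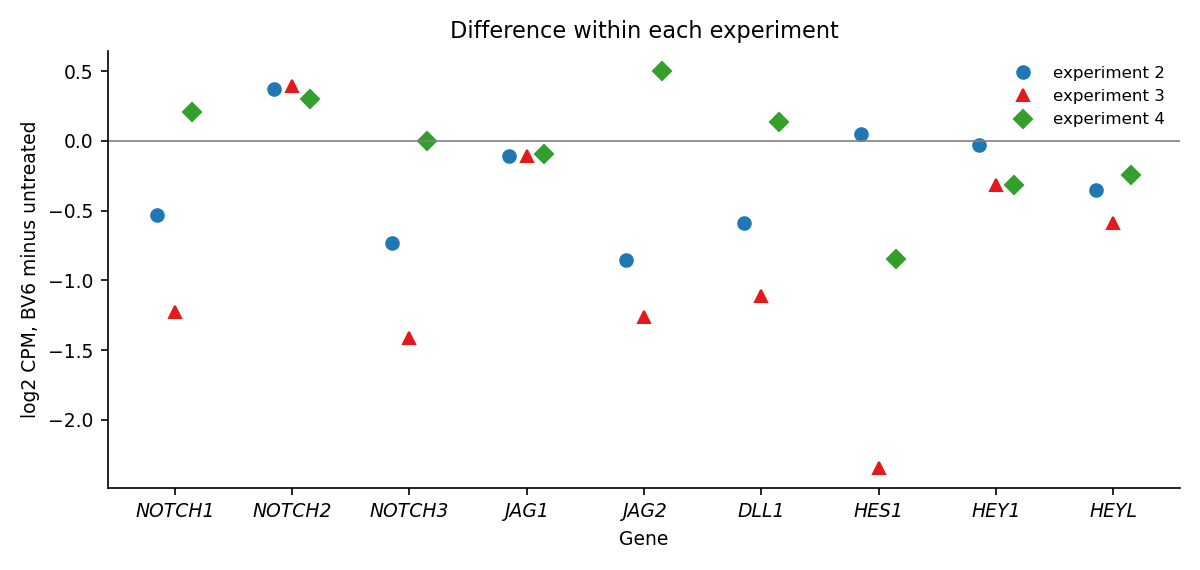
Difference in log2 CPM, BV6 minus untreated, of each member within experiments 2, 3 and 4. NOTCH2 is above 0 and NOTCH3, JAG1, HEY1 and HEYL are below 0 in all 3 experiments, where the value of NOTCH3 in experiment 4 is -0.0021.

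The members differed widely in how much they varied without treatment. The SD of log2 CPM over the 4 untreated samples was 1.21 for HES1, larger than in 99.9% of the 17059 genes with a mean of at least 1 CPM. It was 0.862 for JAG2 (99.3%), 0.572 for NOTCH1 (96.0%) and 0.568 for NOTCH3 (95.9%). NOTCH2 was at the other end with 0.0879 (10.8%), and HEYL (0.157, 37.6%) and HEY1 (0.165, 40.9%) were also steady. With the GC trend of each library taken off, the SD of the untreated samples was 0.668 for JAG2, 0.358 for NOTCH1 and 0.455 for NOTCH3. For HES1 it stayed at 1.21. The same step reduced the range over all 7 samples from 2.35 to 1.33 (log2) for NOTCH1, from 2.49 to 1.67 for JAG2, from 2.34 to 1.75 for NOTCH3 and from 1.63 to 1.26 for DLL1. The range of HES1 hardly moved, from 3.49 to 3.44.

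**Figure D4:**
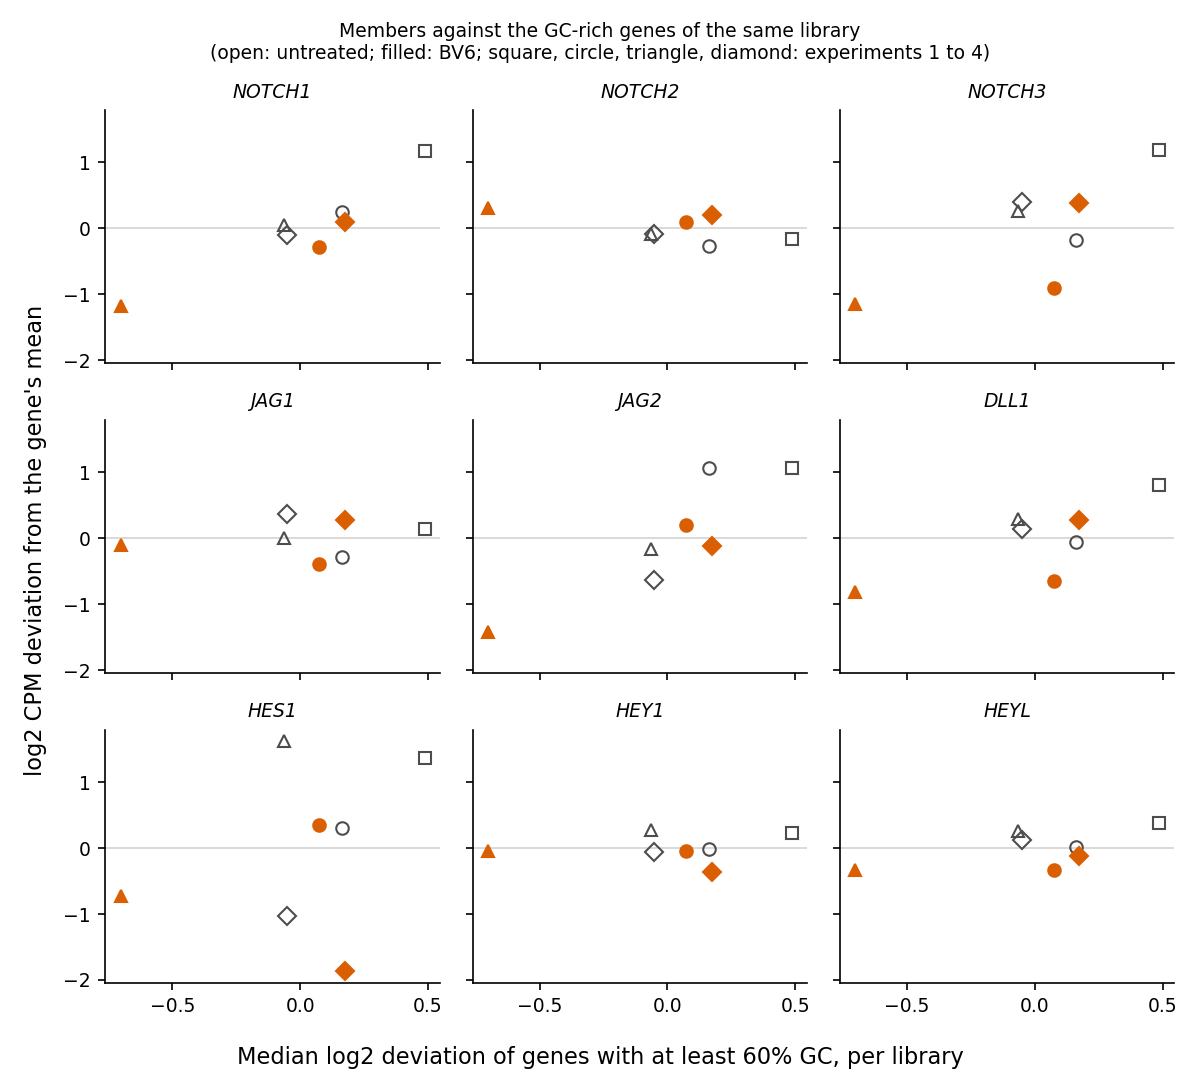
Deviation of each member's log2 CPM from its mean over the 7 samples, against the median deviation of genes with at least 60% GC in the same library (log2). Open symbols are untreated and filled symbols BV6-treated samples. Untreated sample 1 and BV6 sample 3 lie at the ends of the horizontal axis (0.487 and -0.702), and they are also the highest and the lowest samples of NOTCH1, NOTCH3, JAG2 and DLL1.

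Across the 7 samples of both groups, NOTCH3 and DLL1 moved almost in parallel (Pearson r = 0.991, and 0.982 after GC correction), as did HES1 and HEY1 (0.932 and 0.939). By contrast, the r of NOTCH3 and JAG2 went from 0.506 to 0.0686 after GC correction. NOTCH2 and HEYL went in opposite directions (-0.751 and -0.737). These values describe 7 libraries that share the treatment groups and the GC trend. Of 17058 other genes with a mean of at least 1 CPM, those most like NOTCH3 by the same measure were BCAM (r = 0.997), RGMA (0.995) and BCKDK (0.991), which have 64.1, 56.9 and 60.4% GC. Those most like JAG1 were SPN (0.986), CEP85 (0.985) and SNAI1 (0.981), and those most like HES1 were AC007846.1 (0.971), RIMBP3C (0.966) and PCDHB7 (0.965).

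Of 85 further genes of the pathway, 79 could be tested, and 1 of them (1.27%) passed at an adjusted p below 0.05, where 0.45% of all tested genes did. This was DTX4, a Deltex family E3 ubiquitin ligase linked to the turnover of Notch receptors, which was up-regulated. It measured 79.4, 81.4, 64.2 and 64.8 CPM in untreated and 158, 136 and 130 CPM in BV6 samples, with no overlap between the groups. Its mean was 72.5 ± 9.23 CPM without and 141 ± 14.7 CPM with BV6, and it rose by 0.96 on the log2 scale (SE 0.127, 95% interval 0.68 to 1.25, adjusted p = 0.0132). When samples were left out in turn, DTX4 passed in 4 of 7 fits and did not without untreated sample 3, untreated sample 4 or BV6 sample 2, with log2 fold changes of 0.88 to 1.02 and adjusted p-values of 0.0204 to 0.0629. Over the 79 genes the means were higher for 35 and lower for 44 with BV6, with a median log2 fold change of -0.052.

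Of 8 other receptors and ligands tested, 7 were lower on average and 1 higher, and none passed. NOTCH4 averaged 0.977 CPM in untreated and 0.662 CPM in BV6 samples (log2 fold change -0.56, adjusted p = 0.589). DNER, a neuronal Notch ligand, averaged 2.65 and 1.42 CPM (-0.90, adjusted p = 0.421), and the groups of both genes did not overlap. DLL4 (-0.60, adjusted p = 0.711) and DLL3 (0.15, adjusted p = 0.946) were also at low levels, with means between 0.331 and 2.32 CPM.

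Of 11 genes tested in the next list, 8 were lower and 3 higher on average, and none passed. The list joined other HES and HEY genes, Notch-induced genes, and genes of the ID and BHLHE families. HES6, a factor that opposes HES1 and promotes differentiation, had a higher level than HEYL, with 41.1 ± 11.4 CPM per kb in untreated and 24.9 ± 9.73 in BV6 samples. It measured 113, 67.0, 66.6 and 74.6 CPM in untreated and 48.2, 29.9 and 67.9 CPM in BV6 samples (log2 fold change -0.73, adjusted p = 0.526). HES6 has 68.4% GC, its extremes are untreated sample 1 and BV6 sample 3, and the value was -0.39 after GC correction and -0.26 without these 2 samples. The related repressors BHLHE40 (0.46, adjusted p = 0.589) and BHLHE41 (0.63, adjusted p = 0.591) had higher means. HES4 (-0.47, adjusted p = 0.844) averaged 2.54 CPM per kb in untreated and 1.85 in BV6 samples. It has 73.9% GC, and its value was -0.03 after GC correction and 0.48 without untreated sample 1 and BV6 sample 3. HEY2 (-0.08, adjusted p = 0.942) was low throughout, with means of 0.368 and 0.349 CPM per kb. The sign of both genes depended on the samples left out.

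None of the 9 genes for receptor cleavage passed, among them ADAM10, ADAM17 and the γ-secretase subunits, with 6 means higher and 3 lower. None of the 9 genes for receptor glycosylation passed, where 3 were higher and 6 lower. Of these, MFNG, a Fringe enzyme that extends sugars on the receptor, measured 7.83, 8.75, 5.72 and 5.08 CPM in untreated and 4.99, 2.32 and 4.38 CPM in BV6 samples (log2 fold change -0.81, adjusted p = 0.468). Its value was -0.71 after GC correction and -0.47 without the 2 samples that stand apart. Of the 24 genes tested for the nuclear complex and corepressors, 11 were higher and 13 lower, and none passed. RBPJ averaged 227 ± 44.3 CPM in untreated and 261 ± 35.5 CPM in BV6 samples (0.20, adjusted p = 0.771). Of the 18 genes for trafficking and turnover 11 were higher and 7 lower, DTX4 being the one that passed. DTX3L, a second Deltex family ligase, measured 54.9, 67.0, 60.2 and 55.2 CPM in untreated and 82.9, 103 and 67.9 CPM in BV6 samples, without overlap (0.51, adjusted p = 0.288). At an unadjusted p below 0.05 there were 4 higher and 4 lower genes among the 79, which are DTX4, DTX3L, BHLHE40, BHLHE41, DNER, MFNG, HES6 and NOTCH4. These 8 are 10.1% of the 79, close to the 8.39% of all tested genes, and the groups of 8 genes (10.1%) did not overlap, close to the background of 8.83%.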

How the data were processed

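Poly(A)-selected RNA of RH30 cells was sequenced from stranded libraries. According to the paper and the submitters' processing notes, the authors mapped reads to GRCh38 with STAR 2.6.1d and deposited raw counts per gene, unnormalized, for 57189 genes listed by symbol. The use of strand, the treatment of reads on several genes and of read mates in counting are not given in the sources used here. Totals were 54070030 to 77220882 counts per sample, which is more than the reads per library that the paper states, so both mates of a pair may have been counted and 3 counts, the detection floor, may be fewer fragments. The floor covers counting error only.

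Genes were filtered with filterByExpr (minimum count 10), normalized by TMM and compared with edgeR 4.0.16 (R 4.3.3, quasi-likelihood test, two-sided, condition only) in all 7 samples, with Benjamini-Hochberg adjustment over 23124 genes. Standard errors and 95% intervals were derived from F statistics. Levels are CPM, and log2 CPM used a prior count of 2. Symbols were matched to GENCODE release 44 for 37475 genes (864 by a RefSeq synonym) for coordinates, exon length and GC content of the longest transcript. Alternatives were RLE factors, no filter, the replicate block, limma-voom (limma 3.58.1), DESeq2 1.42.0 without and with the block, a loess correction for GC content (span 0.5) without and with the block, the sum of NOTCH2 and NOTCH2NLA, and each sample left out. In simulated counts of 22682 genes for this comparison, 200 of them changed by a log2 fold change of 2, edgeR recovered 167 with 11 false calls, and 152 with 8 false calls with the block. The simulated counts held no experiment effect and no GC trend, and their change was larger than that of any member. They therefore do not measure how well changes of the members' size would be found, or what the block gains.

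Members and pathway lists were chosen with earlier results of these data known. All members are named. Of the 85 other genes, those with an unadjusted p below 0.05 were named, with NOTCH4, DLL3, DLL4, HEY2, HES4, HES6, RBPJ and NOTCH2NLA whatever their values. ADAM10 and ADAM17 are named as examples only. Genes most like a member were the 3 with the highest r for 1 member per role.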

Additional observations from a re-analysis of the deposited data

How the results depend on the processing

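The count of genes passing at an adjusted p below 0.05 was 104, and it was 242 with no filter, 218 with the replicate block, 447 with DESeq2, 550 with DESeq2 and the replicate block, 174 with GC correction, 931 with GC correction and the replicate block, 27 in the 5 samples without untreated 1 and BV6 3, and 38 to 89 when 1 sample was left out (38 without untreated 3, 41 without untreated 1, 44 without untreated 4, 53 without BV6 4, 57 without BV6 2 and 65 without untreated 2). Among the members it was 0, and 1 with DESeq2 (HEYL) and 3 with GC correction and the replicate block (NOTCH2, NOTCH3 and HEYL). Among the other pathway genes it was 1 (background 0.45%), and 2 with DESeq2 and the replicate block (background 2.38%). It was 9 with GC correction and the replicate block (background 5.14%), 0 in the 5 samples, and 0 to 1 when 1 sample was left out. RLE factors and limma-voom moved none of these counts by over 1.5 times. The sign changed for JAG1 (-0.31 to 0.029 with 1 sample left out), NOTCH2NLA (-0.010 to 0.23), HEY2 (-0.13 to 0.010, and 0.0057 with the replicate block), DLL3 (-0.14 to 0.34, -0.15 with the replicate block, -0.17 with DESeq2 and the replicate block, -0.051 in the 5 samples) and HES4 (-0.99 to 0.063, 0.17 with GC correction and the replicate block, 0.48 in the 5 samples). The cause of these shifts was not tested.

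BV6 and untreated samples share codes in the sample titles, which were read as experiments. The replicate block was kept as an alternative because the methods state no design formula. Same-numbered samples correlated in their deviations from the group means by 0.462, 0.438 and 0.0847 in experiments 2, 3 and 4. The mean was 0.328, against -0.11 between other samples. Deviations from a group mean cancel within the group, so these means are not independent of each other. BV6 sample 4 correlated best with untreated sample 1 (0.278). The block alone passed no member at an adjusted p below 0.05, against 5 members at an unadjusted p below 0.05, and kept DTX4. The 5-sample fit, DESeq2 with the block, the uncorrected fit on genes with a known GC content the GC-corrected levels and the receptor shares in 5 samples were chosen after seeing the data. With 3 to 4 samples a group, the 95% intervals of NOTCH1, NOTCH3, JAG2 and HES1 crossed 0 in the fit without block or GC correction. This did not hold in every fit. At an unadjusted p below 0.05, edgeR passed NOTCH3 and HES1 with the block, and NOTCH1 and NOTCH3 after GC correction.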
